A study of Mus musculus with 16 samples.

Results

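Eef1d was followed transcript by transcript in WT Hepa1-6 cells, a mouse hepatoma line, and in the exon 5 KO clones #1, #2 and #3 (KO1, KO2 and KO3). All 15 rows of the count table that carry this gene symbol were taken, out of 67139 rows, where each row is 1 annotated transcript. By the length of the counted coding sequence, 3 rows are long forms (over 500 codons), 7 rows have 200 to 300 codons, as short forms do, and 5 rows have fewer. Each line has 2 RNA-seq and 2 Ribo-seq libraries, 16 in all, with both assays made from 1 lysate per replicate. Each KO line is a single clone in which Cas9 was directed to the introns on both sides of exon 5. KO1 and KO2 were made with the same pair of guides, and KO3 with another guide in intron 4. In bulk libraries, fewer cells that express a transcript and less RNA per cell cannot be told apart. Nothing in the labels says whether replicates are separate cultures, so p-values measure only the spread between these libraries.

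EEF1D is a guanine nucleotide exchange factor. With EEF1B2, EEF1G and valyl-tRNA synthetase it forms the EEF1B complex, which reloads EEF1A with GTP so that EEF1A can bring aminoacyl-tRNA to the ribosome. The long form carries an additional N-terminal exon and is known as a nuclear, stress-responsive transcription factor of brain and testis, while the short forms are expressed widely. Exon 5 encodes a stretch near the N terminus of the short form, and the study asked whether its loss alters translation.

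On the minus strand of chromosome 15 (GRCm38, the build of mm10), Eef1d spans chr15:75894205-75909556. The long form with exon 5 encodes 660 amino acids, the short form with exon 5 encodes 281, and the short form without it encodes 257. The first 379 amino acids of the long form are absent from the short form, and from there on the coding sequences are the same. Almost all of the additional sequence lies in 1 exon, whose 1130 coding bases (chr15:75902679-75903808) fall within an intron of the short transcripts. Exon 5 (chr15:75900691-75900762) has 72 bases and encodes 24 amino acids, from residue 40 to 63 of the short form. Exon 6 (chr15:75897226-75897282) has 57 bases and is another cassette that the annotation places after exon 5.

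The sequences that separate the rows are shown 5′ to 3′ on the transcribed strand, from the RefSeq genome of this build. The first 90 bases of the long-form exon (chr15:75903719-75903808) show its start codon in capitals, and the next sequence joins the end of that exon (chr15:75902679-75902723) to exon 4 (chr15:75901211-75901255) with the start codon of the short form in capitals. Exon 5 and exon 6 are given whole. The junctions are built from them, from the end of exon 4 (short-form coding part chr15:75901132-75901248) and from the exon after exon 6 (chr15:75896820-75896919). In the 4 junctions, the last 30 bases of 1 exon are in lower case and the first 30 bases of the next are in capitals.
Start of the long form: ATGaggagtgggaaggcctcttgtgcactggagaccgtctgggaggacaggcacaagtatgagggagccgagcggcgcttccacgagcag
Long-form exon to exon 4: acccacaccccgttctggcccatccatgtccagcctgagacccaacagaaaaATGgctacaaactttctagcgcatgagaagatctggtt
Exon 5: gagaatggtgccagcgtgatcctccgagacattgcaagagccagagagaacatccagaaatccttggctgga
Exon 6: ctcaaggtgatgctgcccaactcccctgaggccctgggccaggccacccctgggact
Exon 4 to exon 5: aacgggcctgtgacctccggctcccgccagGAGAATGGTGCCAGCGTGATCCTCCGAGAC
Exon 5 to the exon after exon 6: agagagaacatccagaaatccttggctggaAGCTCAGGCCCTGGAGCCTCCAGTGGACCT
Exon 4 to exon 6: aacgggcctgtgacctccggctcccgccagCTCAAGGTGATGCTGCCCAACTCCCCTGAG
Exon 4 to the exon after exon 6: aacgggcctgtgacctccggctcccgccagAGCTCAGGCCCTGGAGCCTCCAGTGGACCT
A read that lies on exons common to several transcripts is counted on each of them. Among rows with the same ends, reads on exon 5, on exon 6, on these junctions or on the long-form exon tell the rows apart, and other rows differ also in where they end or in shared exons that they skip.

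Of the 15 rows, 6 contain exon 5, 2 contain exon 6, and 3 lie wholly inside the long-form exon. The long rows are ENSMUST00000109975.9 and ENSMUST00000089681.11, which contain exon 5 and have identical counts in all 16 libraries, and ENSMUST00000137426.7, which lacks exon 5 and whose annotation is incomplete at the 5′ end. Among the short rows, ENSMUST00000154584.8 contains exon 5 (here the short row with exon 5), and ENSMUST00000109972.8 lacks both cassettes (the short row without exon 5). ENSMUST00000116440.8 has the same counts as ENSMUST00000109972.8 throughout, which leaves 13 distinct rows. ENSMUST00000089680.9 contains exon 6 but not exon 5, ENSMUST00000141268.7 contains both, and ENSMUST00000023235.12 contains exon 5 and ends early. ENSMUST00000141475.1 falls among the short forms by its 219 codons, but the annotation places it wholly within the long-form exon, starting at the same start codon. It is therefore treated as a piece of the long form and called the fragment row. The smaller rows are ENSMUST00000144614.7 (with exon 5) and ENSMUST00000123712.7 (without it), both ending early, ENSMUST00000127550.1 and ENSMUST00000145764.1 (both inside the long-form exon), and ENSMUST00000151066.7. The last runs from exon 4 straight to the later shared exons, so it counts no read on exon 5 and none on the junctions beside it. It is called the common row, and it measures Eef1d independently of exon 5.

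**Figure D1:**
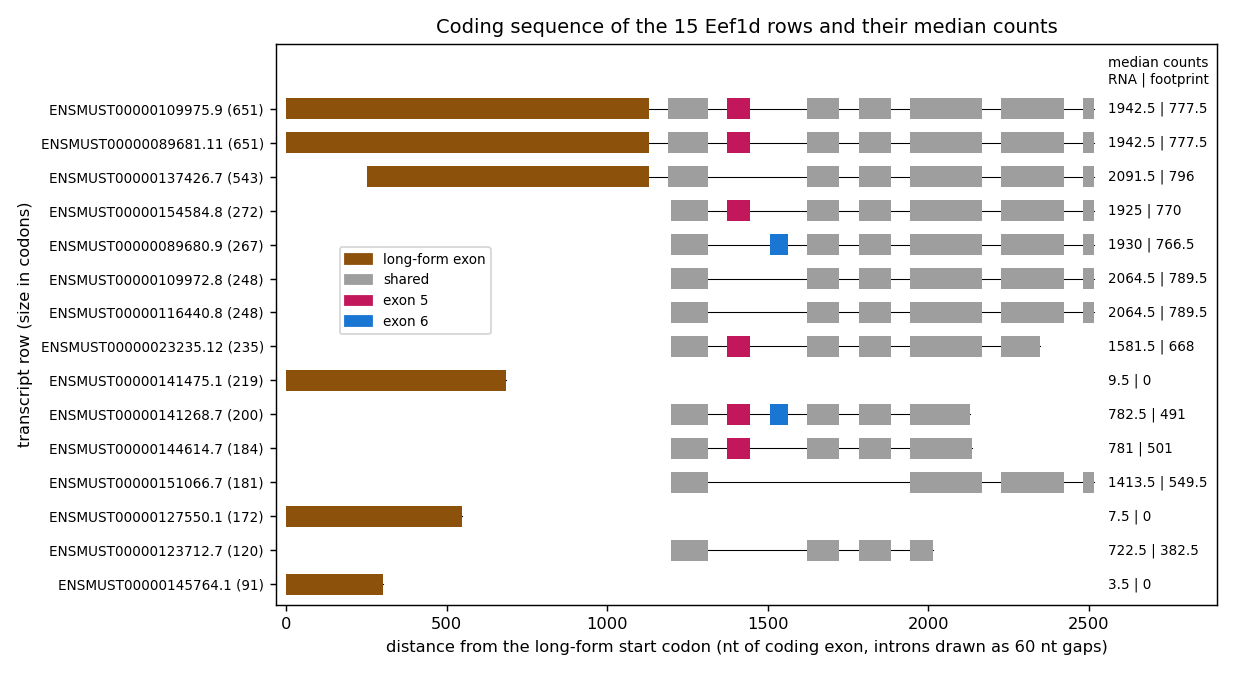
Coding exons of the 15 rows by distance from the start codon of the long form (nucleotides of coding exon, introns drawn as short gaps), with the row size in codons and, at the right, the median count over 8 RNA-seq and 8 Ribo-seq libraries. The 3 rows inside the long-form exon have median RNA-seq counts of 9.5, 7.5 and 3.5 and median footprint counts of 0, while the long rows have medians close to those of the short rows.

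Summed over all rows, the shallowest RNA-seq library had 24726706 counts and the deepest 30748268, while Ribo-seq ranged from 2604223 (KO1 replicate 2) to 11147904 (KO1 replicate 1). Levels are in CPM, counts scaled to a common library total after TMM within each assay. Of 10 hepatocyte markers, 7 had at least 10 counts in every RNA-seq library, among them Alb, Afp and Hnf4a, while Ttr, Apoa1 and Serpina1a did not. Their summed level was from 1767 to 1823 CPM in WT cells, from 433.7 to 437.5 in KO1, from 1575 to 1594 in KO2 and from 2380 to 2616 in KO3. The members did not move together in KO3: Alb (1.25), Afp (0.65), Apoe (0.34) and Apoa2 (0.78) rose on the log2 scale, while Trf (-0.63), Hnf4a (-0.36) and Fgb (-0.72) fell. The 8 neuron markers and the 8 male germ cell markers, for the tissues in which the long form is known, each summed to at most 0.4751 CPM in every RNA-seq library, and none of the 16 reached 10 counts in every RNA-seq library. The 6 muscle markers summed to between 0.3433 and 1.09 CPM in the RNA-seq libraries. In Ribo-seq, the muscle marker Acta1 stood at 203.2 to 277.1 CPM, and every other muscle marker at no more than 0.4238 CPM. What the Acta1 footprints are was not tested.

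Exon 5 itself was measured first, since it is the deleted part. The count of the short row with exon 5 minus that of the row with exon 6 leaves the reads that need exon 5, less those that need exon 6. In RNA-seq these were 350 and 397 reads in WT cells, -2 and -5 in KO1, then -8 and -6 in KO2, with 15 and 17 in KO3. Both WT libraries stood far above all 6 KO libraries, and the 2 KO3 libraries stood above the 4 libraries of KO1 and KO2. Per 100 reads of the common row, this was 24.3 and 26.2 in WT cells, at or below -0.139 in KO1 and KO2, and 1.39 and 1.60 in KO3. A pair of rows that both contain exon 5 and differ in exon 6 and in their ends (ENSMUST00000144614.7 minus ENSMUST00000141268.7) gave WT, KO3 and then KO1 and KO2 in falling order in RNA-seq, with 211 and 270 reads in WT cells, from -2 to 0 in KO1 and KO2, and 14 and 15 in KO3. Its Ribo-seq values were 66 and 43 in WT cells and from 3 to 18 in the clones, with KO3 at 14 and 8 and KO1 at 18 and 3, so in footprints this pair did not set KO3 apart. In Ribo-seq, the reads that need exon 5 were 129 and 91 in WT cells, 2 and -2 in KO1, then -2 and 0 in KO2, with 7 and 3 in KO3. The deposited counts do not give the position of the reads behind the KO3 values, and what they are was not tested.

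Reads across the junction that skips exon 5 were estimated as the short row without exon 5 minus the row with exon 6. This difference leaves the skipping reads less those that need exon 6, so it is too low where exon 6 is used. In RNA-seq it was 21 and 37 reads in WT cells, 173 and 171 in KO1, then 214 and 224 in KO2, with 144 and 137 in KO3. Per 100 reads of the common row, WT cells had 1.46 and 2.44, and the 6 KO libraries had 13.4 ± 1.13 (mean ± SD, n = 6; range 12.0 to 15.4). In Ribo-seq they were 5 and 2 reads in WT cells, 31 and 8 in KO1, then 41 and 31 in KO2, with 15 and 16 in KO3, which is 0.711 and 0.416 per 100 common reads in WT cells against 4.33 ± 0.929 (SD, n = 6) in the KO libraries. The groups did not overlap in either assay. Relative to the KO lines, in which exon 5 is deleted, the skipping reads of WT cells came to 10.9% and 18.2% in RNA-seq and to 16.4% and 9.60% in Ribo-seq. This measure was chosen after its values were seen, it treats skipping as complete in the KO lines and leaves exon 6 aside, and it rests on as few as 2 reads in Ribo-seq. In KO1 and KO2, where reads on exon 5 are not expected, the row with exon 6 exceeded the short row with exon 5 by 2 to 8 RNA-seq reads.

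**Figure D2:**
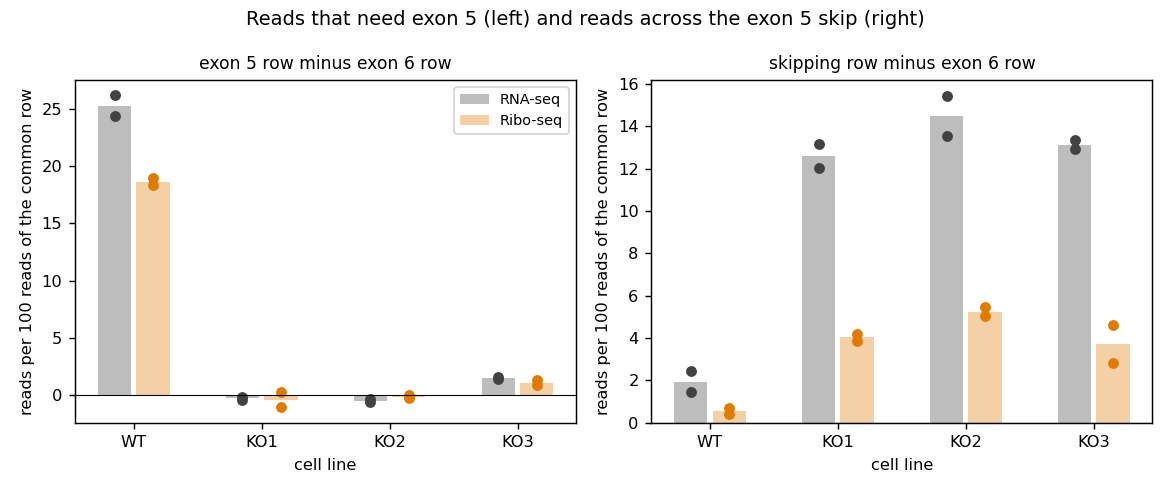
Reads that need exon 5 (left) and reads across the skip of exon 5 (right), per 100 reads of the common row, by line. Points are libraries and bars are means of 2 (gray, RNA-seq; orange, Ribo-seq). WT libraries have 24.3 and 26.2 exon 5 reads in RNA-seq against at most 1.60 in the KO lines, and 1.46 and 2.44 skipping reads against at least 12.0.

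For the short row with exon 5, the RNA-seq counts were 2386 and 2582 in WT cells, 1897 and 1717 in KO1, then 1953 and 2237 in KO2, with 1515 and 1497 in KO3. For the short row without exon 5 they were 2057 and 2222, 2072 and 1893, 2175 and 2467, and 1644 and 1617 in the same order. The common row had 1440 and 1518 counts in WT cells, 1440 and 1300 in KO1, then 1387 and 1653 in KO2, with 1077 and 1061 in KO3. On the CPM scale the common row ranged from 54.4 to 55.2 in WT cells and went down to 35.9 in KO3, so the KO3 libraries were the low ones whichever row was used.

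Footprints of the common row were 703 and 481 in WT cells, 798 and 191 in KO1, then 815 and 568 in KO2, with 531 and 348 in KO3. The footprint counts of the short row with exon 5 were 1111 and 727, 1075 and 238, 1118 and 793, and 747 and 491, and those of the short row without it were 987 and 638, 1104 and 248, 1161 and 824, and 755 and 504. Within each line the libraries differ in depth, and the CPM values show the lines in another order than the raw counts. On that scale, the common row stood at 85.7 and 86.2 CPM in WT cells, at 70.5 and 70.3 in KO1, at 88.3 and 81.7 in KO2, and at 56.3 and 46.4 in KO3. The KO1 and KO3 libraries lay below both WT libraries, and the KO2 libraries lay on both sides of them.

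**Figure D3:**
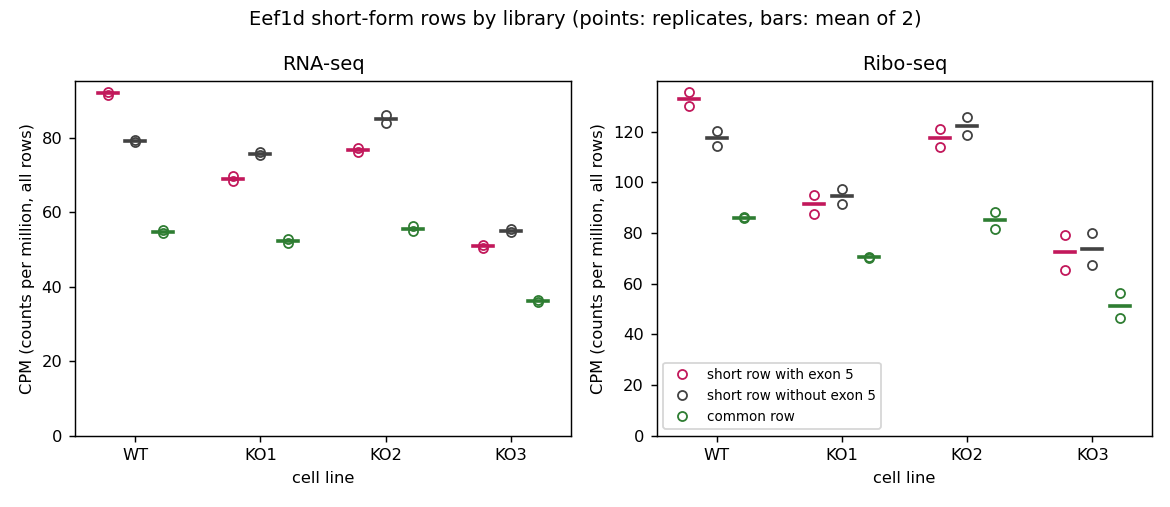
CPM of the short row with exon 5, the short row without it and the common row, by line, in RNA-seq (left) and Ribo-seq (right). Points are libraries and bars are means of 2. In RNA-seq the common row lies between 54.4 and 55.2 CPM in WT cells and reaches 35.9 in KO3.

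edgeR's quasi-likelihood test, adjusted over all rows, was run for each clone against WT. In KO1, the RNA of the common row, ENSMUST00000151066.7, had a log2 fold change of -0.07 (SE 0.0636, edgeR adjusted p = 0.44), and in KO2 of 0.02 (SE 0.0647, edgeR adjusted p = 0.87). In KO3 the RNA of the common row was lower, with a log2 fold change of -0.60 (SE 0.0684, edgeR adjusted p = 4.92e-10). Footprints of the common row were lower in KO3 as well, by -0.73 (SE 0.0826, edgeR adjusted p = 9.44e-13), and in KO2 the change was -0.01 (SE 0.0771, edgeR adjusted p = 0.95). In KO1 they changed by -0.27 (SE 0.0874, edgeR adjusted p = 0.0129), a call that DESeq2 did not make (adjusted p = 0.25) and that was lost without KO1 replicate 1 (0.139), without WT replicate 1 (0.147) and without WT replicate 2 (0.115). For the short row without exon 5, the RNA changed by -0.06, 0.10 and -0.52 in KO1, KO2 and KO3 and footprints by -0.29, 0.06 and -0.67, with calls in KO3 for both and in KO1 for footprints. This row gains reads across the skip of exon 5 in the clones, and the common row counts none of them. For ENSMUST00000109972.8 in KO1, the footprint call was lost with DESeq2 (adjusted p = 0.12) and without WT replicate 1 (0.175). In a model of all 4 lines, the 3 clones differed from each other in the RNA of the common row (edgeR adjusted p = 9.99e-11) and in its footprints (edgeR adjusted p = 1.80e-11). Such a difference was called for 66.2% of all rows tested in RNA and for 51.3% in footprints.

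In RNA, the rows separated by whether they contain exon 5. Exon 5 is deleted in every clone, so part of any fall of the rows that contain it, in RNA or footprints, was fixed in advance. In KO1, the RNA of 7 of the 14 Eef1d rows that passed the filter on low counts was lower and none was higher, where 40.7% of all rows tested were called, 21.6% lower and 19.1% higher. These 7 were the 6 rows with exon 5, with log2 fold changes from -0.83 to -0.41, and ENSMUST00000089680.9, the row with exon 6 (-0.18), whose call was lost with DESeq2 (adjusted p = 0.0644), without WT replicate 1 (0.0791) and without WT replicate 2 (0.0834). In KO2, the 6 rows with exon 5 were the 6 called of 13, all lower, from -0.55 to -0.24 (all rows: 15.3% called, 6.51% lower and 8.76% higher). ENSMUST00000123712.7, a row without exon 5, was higher by 0.24 with an edgeR adjusted p of 0.0543. edgeR called it with 1 row per gene (0.0458), with all libraries in 1 fit (0.045), with no filter (0.0456) and with a replicate block (0.0237). This row holds the junction that skips exon 5, so part of its rise was fixed in advance. ENSMUST00000141268.7 was no longer called with DESeq2 (adjusted p = 0.123), without KO2 replicate 2 (0.138), without WT replicate 1 (0.136) or without WT replicate 2 (0.206). In KO3, 12 of 14 were lower (all rows: 36.9% called, 18.1% lower and 18.8% higher), the 6 with exon 5 from -1.09 to -0.82 and the 6 shared rows without it from -0.63 to -0.35. ENSMUST00000141475.1, the fragment row, changed by -0.32, -1.15 and -1.26 in the 3 clones in order (edgeR adjusted p = 0.637, 0.17 and 0.059). ENSMUST00000127550.1, inside it, passed the filter in KO1 (-0.51) and KO3 (-1.22) and was not called either (edgeR adjusted p = 0.47 and 0.0835). Since the rows share most of their reads, these are not independent counts.

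Footprints were lower for all 12 rows tested in KO1 and in KO3, and higher for none. Of all rows, 22.9% were called in KO1 (12.6% lower and 10.3% higher) and 25.1% in KO3 (13.1% lower and 12.1% higher). In KO1 the rows with exon 5 changed by -0.62 to -0.51 and those without it by -0.32 to -0.27. In KO3 these ranges were -0.87 to -0.73 and -0.73 to -0.51. DESeq2 called 6 of the 12 in KO1, which were the rows with exon 5, and the same 6 remained when WT replicate 1 was left out. In KO2, edgeR called none of 12 (all rows: 8.68%, with 4.04% lower and 4.64% higher) and DESeq2 none, while 6 had an unadjusted p under 0.05. With a replicate block, edgeR called 5 in KO2, of which ENSMUST00000123712.7 was higher (0.24) and the other 4 were rows with exon 5. As in RNA, ENSMUST00000123712.7 gains skipping reads in the clones.

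**Figure D4:**
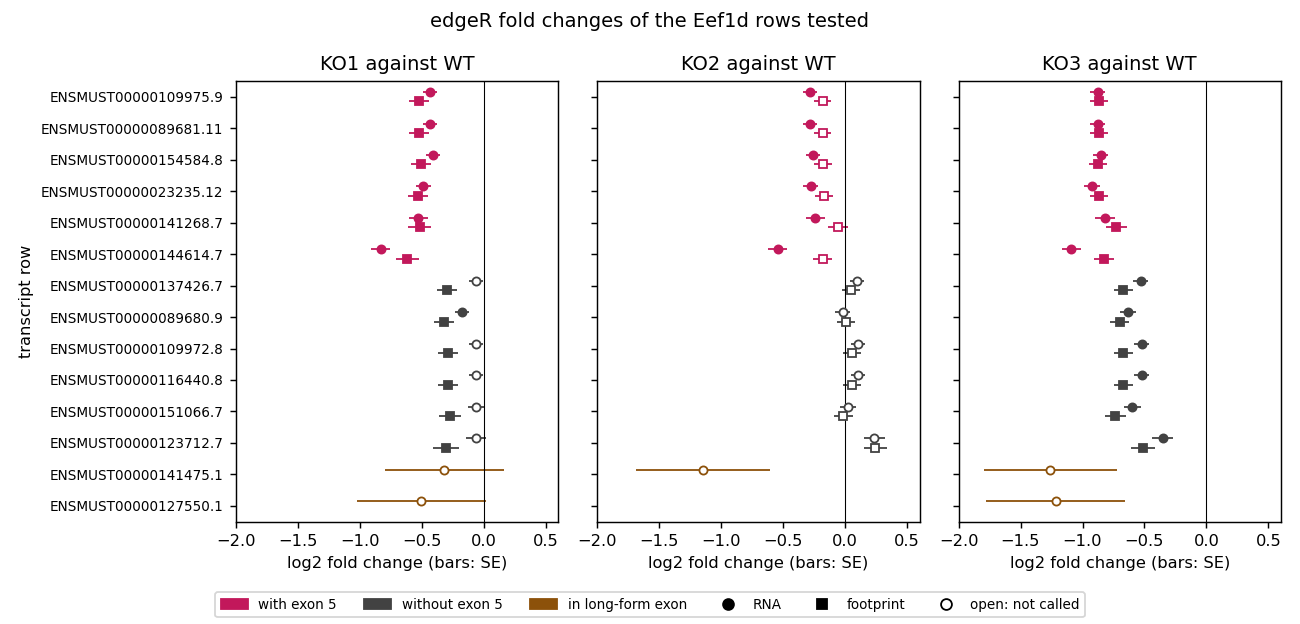
Log2 fold changes of the Eef1d rows that passed the filter, each clone against WT, with SE, from edgeR; circles are RNA, squares are footprints, and filled symbols have an adjusted p under 0.05. In RNA, rows with exon 5 lie left of the shared rows without it in each clone, and in KO3 both kinds lie left of 0, with the common row at -0.60 in RNA and -0.73 in footprints.

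TE, the footprint change relative to the RNA change, was called for no Eef1d row. edgeR called 0 of 12 in each clone, where 0.145%, 0.0157% and 0.0939% of all rows were called in KO1, KO2 and KO3, and DESeq2 called 0 of the 3, 12 and 12 rows for which it gave an adjusted p. The unadjusted p was under 0.05 for 4 rows in KO1 and for 1 row in KO2 and in KO3. The TE change of the common row was -0.21 in KO1 (SE 0.102), -0.04 in KO2 (SE 0.102) and -0.14 in KO3 (SE 0.107), and edgeR gave adjusted p-values of 0.656, 1.00 and 0.881.

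The long rows had counts near those of the short rows because nearly all of their reads are shared. In RNA-seq, between 98.5% and 99.4% of the reads of ENSMUST00000137426.7 were also reads of its short partner ENSMUST00000109972.8, and in Ribo-seq between 97.5% and 99.6%. For ENSMUST00000109975.9 and its short partner ENSMUST00000154584.8 the shares were 97.4% to 99.3% in RNA-seq and 97.4% to 99.6% in Ribo-seq. The fold changes of the long rows therefore followed those of their partners: the RNA of ENSMUST00000109975.9 changed by -0.43, -0.28 and -0.88 in KO1, KO2 and KO3, and the RNA of ENSMUST00000154584.8 by -0.41, -0.26 and -0.85. For ENSMUST00000137426.7 the RNA changes were -0.07, 0.10 and -0.53. A change of a long row in this table is thus a statement about the shared coding sequence and not about the long form.

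Reads that belong to the long form alone were few. The fragment row, with 219 codons inside the long-form exon, had 11 and 20 RNA-seq counts in WT cells, 13 and 11 in KO1, then 6 and 8 in KO2, with 7 and 7 in KO3. The WT libraries overlapped those of the clones. Its footprint counts were 1 and 0 in WT cells, 0 and 0 in KO1, then 0 and 0 in KO2, with 2 and 1 in KO3, so 5 of 8 libraries had none. Both smaller rows of the exon lie within the fragment row and cannot exceed it.

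Per codon, the fragment row stood at 0.573% and 0.962% of the short row with exon 5 in the RNA-seq of WT cells (exact Clopper-Pearson 95% intervals 0.285% to 1.03% and 0.587% to 1.49%). In the 6 KO libraries it was between 0.382% and 0.851%, within the range of the WT intervals. The denominator also lost the reads on exon 5 in the KO lines. In Ribo-seq, the 4 footprints of all 8 libraries together, against 6300 on the short row with exon 5, gave 0.0789% (95% interval 0.0215% to 0.202%). For the 5 libraries without a footprint, 3 counts would be from 0.333% (KO2 replicate 1) to 1.57% (KO1 replicate 2) of the short row per codon. Intervals and limits cover counting error only. The short row with exon 5 minus ENSMUST00000144614.7, which ends early, leaves the last 88 codons of the short form. In WT RNA-seq this difference held 2.08 and 1.93 times as many reads per codon as the 184 codons of ENSMUST00000144614.7. For footprints the values were 1.09 and 1.24 times. Reads that run past the early end of a row may be left out of it and fall in the difference. These values are therefore not a measured gradient along the short form. The fragment row also ends early and may be undercounted in RNA-seq for the same reason. Set against ENSMUST00000144614.7 alone, it was at 0.773% and 1.25% in WT RNA-seq. Since the long-form exon is intronic in the short transcripts, RNA reads from the long form and from unspliced RNA cannot be told apart.

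**Figure D5:**
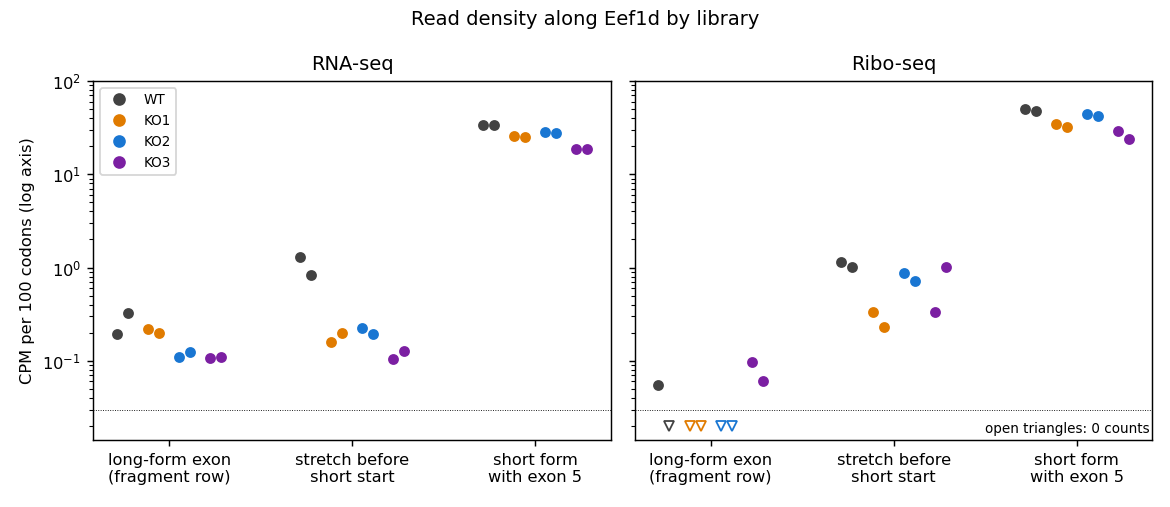
CPM per 100 codons on a log axis for the fragment row, for the stretch before the start of the short form and for the short row with exon 5, in RNA-seq (left) and Ribo-seq (right). Points are libraries by line, and open triangles mark 0 counts. The short row lies between 18.6 and 34.0 in RNA-seq, and the fragment row between 0.107 and 0.327.

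Subtracting a short row from its long partner gives the long-only region. For the pair without exon 5 (295 codons) this left 25 and 33 RNA-seq counts in WT cells, 29 and 17 in KO1, then 23 and 17 in KO2, with 14 and 10 in KO3. The footprints were 15 and 9, 6 and 1, 13 and 8, and 5 and 13 in the same order. For the pair with exon 5 (379 codons) the RNA-seq counts were 65 and 57 in WT cells, 20 and 19 in KO1, then 15 and 17 in KO2, with 12 and 13 in KO3. The WT libraries stood apart from the clones in the second pair but overlapped them in the first. The differences of both pairs also hold the first 5 codons of the short form, which are left out of the short rows but not of the long rows. Both rows of the second pair contain exon 5, which is deleted in the clones. Reads that run into exon 5 can therefore be lost from its difference with no change of the long form. Both rows of the first pair lack exon 5, so its difference can gain reads that skip exon 5 in the clones.

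By row counts, the long-only reads were not spread evenly. Of the 73 footprints of the pair with exon 5 in all libraries, 4 were counted on the 219 codons of the fragment row. The other 69 were left for the last 160 codons, the stretch that ends with those first 5 codons of the short form. Of the 218 RNA-seq reads, 83 were counted on the fragment row and 135 were left for the stretch. Reads that run past the end of the fragment row may be among those left for the stretch. In the stretch, RNA-seq counts were 54 and 37 in WT cells and from 5 to 9 in the KO libraries. The footprints there were 15 and 9 in WT cells and from 1 to 13 in the KO libraries, an overlap that the RNA-seq counts did not show. The table gives no position within a row, so reads on those first 5 codons and reads on the codons before them cannot be told apart. The stretch comes from the pair with exon 5, so the limit given for that pair holds for it.

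The RNA of the long-only region (pair without exon 5) changed by -0.29 in KO1 (SE 0.359, edgeR adjusted p = 0.558), by -0.54 in KO2 (SE 0.372, edgeR adjusted p = 0.384) and by -1.39 in KO3 (SE 0.411, edgeR adjusted p = 0.00585). Leaving out 1 library moved the KO1 value to -0.66 (without KO1 replicate 1), -0.01 (without KO1 replicate 2) or -0.13 (without WT replicate 2), and the KO2 value to -0.88 (without KO2 replicate 1) or -0.24 (without KO2 replicate 2), with no call. The KO3 call was lost with DESeq2 (adjusted p = 0.0799), without KO3 replicate 2 (0.0636) and without WT replicate 2 (0.108). With the other pair, all 3 clones were called (-1.60, -1.94 and -2.41), so the call in KO1 and KO2 depends on the pair. Both rows of that other pair contain the deleted exon 5, so its calls do not measure the long form alone. The pair without exon 5 can gain skipping reads in the clones, so its values do not measure the long form alone either. Footprints of the region (pair without exon 5) changed by -1.75 in KO1 (SE 0.578, edgeR adjusted p = 0.0164) on 6 and 1 reads. They changed by -0.42 in KO2 and by -0.70 in KO3, and only KO1 was called. The KO1 call was lost without KO1 replicate 2 (adjusted p = 0.0901) and without WT replicate 2 (0.124). The TE change of the region was -1.49, 0.11 and 0.69, with edgeR adjusted p-values of 0.651, 1.00 and 0.901. The clones did not pass a test of difference from each other for this region in RNA, footprints or TE (edgeR adjusted p = 0.0626, 0.154 and 0.387). In TE, 1.01% of all rows passed that test.

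Set against the shared reads of the same library, the long-only region had a mean log2 ratio of -6.22 ± 0.205 (SD, n = 2) in WT RNA-seq and -6.82 ± 0.425 (SD, n = 6) in the KO libraries. The difference of -0.60 had a p of 0.143 in an exact two-sided permutation test of 2 against 6 libraries, for which the smallest possible p is 0.0714. In Ribo-seq the means were -6.09 ± 0.0760 (SD, n = 2) and -6.86 ± 0.945 (SD, n = 6), and the difference of -0.77 had an exact permutation p of 0.357. With the pair with exon 5, the RNA-seq difference was -1.48, and the WT libraries (-5.50 and -5.20) did not overlap the KO libraries (-7.04 to -6.50). Its exact permutation p of 0.0714 is the smallest possible with 2 against 6 libraries. Both rows of this pair contain exon 5, which is deleted in the clones, so this difference does not measure the long form alone. The differences of the pair without exon 5 have the reverse limit, since that pair can gain skipping reads in the clones. Within lysates, footprints per RNA read on the long-only region relative to the shared sequence came to a mean log2 difference of 0.00 (SD 1.07, n = 8, exact sign-flip permutation p = 1.00). Of 8 lysates, 4 were below 0, and the range was from -1.36 (KO1 replicate 1) to 2.06 (KO3 replicate 2). The region also holds the first 5 codons of the short form, so its reads may include short-form reads. This value is therefore not a measure of the long form alone. With the fragment row in place of the region, chosen after seeing the data and with a pseudocount of 0.5, the mean was -2.16 and all 8 lysates were below 0. In the 5 lysates with no footprint on the fragment row the pseudocount sets this value. It is therefore a description, and no p-value is given for it. Added over all libraries, the fragment row had 4.82 footprints per 100 RNA-seq reads and the short row with exon 5 had 39.9.

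The partners of EEF1D were read in the same libraries, by the row of each gene with the most counts. Per 100 codons, the WT RNA-seq level was 33.6 to 34.0 CPM for the short row with exon 5, with exchange factor partner Eef1b2 at 244 CPM, the scaffold Eef1g at 187.9 CPM and the synthetase Vars at 15.0 CPM. The footprint level was 47.9 to 49.8 CPM per 100 codons for the short row, 158.4 for Eef1b2, 152 for Eef1g and 12.9 for Vars. Eef1d thus lay below its partners Eef1b2 and Eef1g and above Vars on both scales, by more than the range of its 2 WT libraries. Counts of these genes may include reads shared with near-identical copies elsewhere in the genome. Eef1a2, the form of EEF1A known from muscle and neurons, had from 0 to 4 RNA-seq counts.

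Of 10 genes for the EEF1 complex, for elongation and for proteins that bind EEF1D, 9 were tested. The list includes Eef2, another elongation factor, and Eef1e1, a synthetase complex protein, which are not parts of the EEF1 complex. In KO1, the RNA of 5 rose and none fell (22.9% and 23.8% of all genes), with a median log2 fold change of 0.11 against 0.01 for all genes. Eef2, the translocation factor, rose by 0.39, Vars by 0.34 and Eef1b2 by 0.29 (edgeR adjusted p = 9.83e-20, 1.63e-09 and 1.78e-10). In KO2, 1 fell and none rose (8.64% and 11.1% of all genes), with a median of -0.03 against 0.00. This was Eef2 (-0.38, edgeR adjusted p = 2.55e-07), and the next in order, Vars (0.13) and the ER membrane protein Ktn1 (-0.21), had adjusted p-values of 0.0674 and 0.0733. In KO3, 6 rose and 2 fell (21.9% and 22.1% of all genes), with a median of 0.12 against 0.00. Eef2 rose by 0.35, the synthetase complex protein Eef1e1 by 0.39 and the ER ribosome receptor Rrbp1 by 0.28 (edgeR adjusted p = 3.30e-13, 4.91e-06 and 6.24e-05), and the 2 that fell were Ktn1 (-0.32) and Eef1g (-0.09). Eef1b2 RNA changed by -0.07 in KO3 (edgeR adjusted p = 0.156), where the common row of Eef1d changed by -0.60. In footprints 2, 1 and 1 members rose and 3 fell in each clone, where 12.5%, 5.69% and 13.6% of all genes rose and 13.8%, 5.24% and 16% fell. Eef1g (-0.30) and Eef1b2 (-0.21) were among those that fell in KO3, and Vars changed by -0.09 (edgeR adjusted p = 0.329). No member was called for TE by edgeR, while 4 of 9, 0 of 10 and 9 of 10 had an unadjusted p under 0.05 in KO1, KO2 and KO3.

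The long form is known to act on heat shock elements, and 12 genes of that stress response were read for this reason. Hspa1a, Hspa1b and Hspb1 had at most 3 RNA-seq counts in any library and were not tested. Of the 9 tested, the RNA of 4 rose and 4 fell in KO1, 5 rose and none fell in KO2, and none rose and 5 fell in KO3. Of all genes, 22.9%, 11.1% and 21.9% rose and 23.8%, 8.64% and 22.1% fell. The median log2 fold changes were -0.06, 0.18 and -0.13, against 0.01, 0.00 and 0.00 for all genes. The mitochondrial chaperonin gene Hspe1 had changes of 0.40, 0.38 and -0.40 (edgeR adjusted p = 6.33e-11, 2.30e-05 and 9.89e-08), so its direction differed between the clones. The chaperone Hsph1 rose by 0.41 in KO1 and Hsp90ab1 by 0.22, the cochaperone Dnajb1 rose by 0.37 and the chaperonin Hspd1 by 0.18 in KO2, and in KO3 Hspd1 fell by 0.29. The heme oxygenase gene Hmox1 fell by 0.84 in KO1 and by 0.80 in KO3 on the log2 scale and changed by 0.24 in KO2 (edgeR adjusted p = 7.14e-06, 2.42e-05 and 0.244). In footprints 1, 3 and 1 members rose and 2, 0 and 3 fell, beside 12.5%, 5.69% and 13.6% of all genes that rose and 13.8%, 5.24% and 16% that fell. For TE edgeR called none in any clone, and 1, 0 and 1 had an unadjusted p under 0.05.

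Among 9259 genes with at least 50 counts in every RNA-seq library, Kansl2, a subunit of a histone acetyltransferase complex, had the RNA pattern most like that of the short row without exon 5 (Pearson r of log2 CPM 0.997 over 8 RNA-seq libraries, 0.925 over 8 Ribo-seq libraries). The small GTPase Rab23 (0.995 and 0.775), the adhesion receptor Adgra2 (0.995 and 0.929), the asparaginase Asrgl1 (0.992 and 0.865) and Ssx2ip (0.992 and 0.867) followed. The 8 libraries are 4 lines with 2 replicates each, so these values mostly describe an order of 4 lines, and 371 genes (4.01%) had an r over 0.9. Mean RNA levels of Kansl2 were 92.3, 87.7, 96.7 and 66.8 CPM in WT, KO1, KO2 and KO3. The long-only region did not reach 50 counts in every RNA-seq library, so no likeness to it was computed.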

How the data were processed

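Hepa1-6 WT cells and 3 exon 5 KO clones were profiled by Ribo-seq and RNA-seq, with 2 replicates of each. Per the study's methods and the labels, the authors trimmed adapters with fastp 0.21.0, removed noncoding RNA reads, aligned to mm10 with STAR 2.7.0a on GENCODE vM23 and assigned reads to the A site, without the first and last 5 codons. They deposited counts per transcript, without normalization. The labels name polyA RNA, while the extract protocol names rRNA depletion, which was not settled. Rows were matched to GENCODE vM21 on the same build, and all 15 were found. Total counts per library ranged from 24726706 to 30748268 (RNA-seq) and from 2604223 to 11147904 (Ribo-seq).

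For this report, edgeR 4.0.16 (quasi-likelihood, TMM within assay, filterByExpr) was run for each clone against WT over all rows, with Benjamini-Hochberg adjusted p under 0.05 as a call. TE was the interaction of genotype and assay. DESeq2 1.42.0 was an alternative. Scripts were tested on simulated data. Ratios were tested by exact permutation (scipy 1.17.1). Alternatives were normalization, filter, 1 row per gene, all libraries in 1 fit, replicate and lysate blocks, each replicate left out, the other row pair and a pseudocount of 0.5. Genes were named by rule: every Eef1d row, 2 lists (per clone the 3 members with the smallest adjusted p in RNA; others named were chosen after their values were seen) and the 5 genes most alike. Members, lists and rules were chosen with earlier results of these data known.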

Additional observations from a re-analysis of the deposited data

Results flagged for a closer look

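The clones differed from each other in the RNA and the footprints of 5 Eef1d rows, by a test of equal clone effects in a model of all libraries of an assay (edgeR, adjusted p). For RNA the adjusted p was 6.85e-11 for ENSMUST00000154584.8, 1.05e-11 for ENSMUST00000109972.8, 9.99e-11 for ENSMUST00000151066.7, 6.22e-11 for ENSMUST00000109975.9 and 8.71e-12 for ENSMUST00000137426.7. For footprints it was 3.54e-12, 3.84e-13, 1.80e-11, 4.13e-12 and 3.95e-13 in the same order. RNA fold changes of these rows were from -0.43 to -0.06 in KO1, from -0.28 to 0.10 in KO2 and from -0.88 to -0.52 in KO3. Footprint fold changes were from -0.52 to -0.27, from -0.18 to 0.06 and from -0.87 to -0.67 in the same order. Such a difference was called for 66.2% of all rows tested in RNA and 51.3% in footprints, and the rows share most of their reads, so these are not separate observations.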

How the results depend on the processing

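Of 774 values under an alternative, 733 kept their direction and their side of the threshold (counts within 1.5 times). The counts of Eef1d rows called changed in 3 of 102: footprint calls in KO1 were 6 with DESeq2 and, with each replicate left out in turn, from 6 to 11, and those in KO2 were 5 with a replicate block. The block changed no other count by over 1.5 times and no call of the long-only region. The replicate numbers are shared by all lines, but same-numbered libraries deviated together only at r from 0.013 to 0.229 (RNA-seq) and 0.083 to 0.15 (Ribo-seq), so the numbers were not taken as pairs. RNA and Ribo-seq of 1 lysate deviated together at r from 0.105 to 0.239, and a lysate block left TE calls at 0. With the block, the log2 ratio of long-only to shared reads differed by -0.60 in RNA-seq (exact permutation p = 0.25) and by -0.77 in Ribo-seq (exact permutation p = 0.375), where the smallest possible p is 0.125.

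For the long-only region, the pair with exon 5 made RNA changes of -1.60 in KO1 and -1.94 in KO2 into calls, and DESeq2 ended the KO3 call (-1.41). The rows of that pair contain the deleted exon 5, so its RNA changes do not measure the long form alone. The pair without exon 5 can gain skipping reads in the clones, so the same holds for its changes. With each replicate left out, the RNA change ran from -0.66 to -0.01 in KO1, from -0.88 to -0.24 in KO2 and from -1.63 to -1.19 in KO3, the KO1 footprint change from -1.83 to -1.67, the KO3 footprint change from -1.70 to 0.0056, and the TE change from -0.12 to 0.36 in KO2 and from -0.52 to 1.63 in KO3, with reversals in the last 3. At least 10 counts in every library could not be applied to its footprints or TE, DESeq2 gave no adjusted p for its KO1 footprints or its TE in KO1 and KO3, its KO1 footprints could not be fitted without KO1 replicate 1 or without WT replicate 1, and the cause of the changes was not tested. Footprints per RNA read reversed from 0.00 to -0.15 with the pair with exon 5, to -0.0409 in clone lysates alone and to -2.16 with the fragment row (which had no footprint in 5 of 8 lysates), and ranged from -0.29 to 0.20 with a replicate left out. The Ribo-seq ratio with the fragment row was 0.0792, and skipping reads of WT cells relative to the clones ranged from 10.9% to 18.2% (RNA-seq) and from 9.60% to 16.4% (Ribo-seq) with a replicate left out. Near 0, single rows reversed: footprints of the common row in KO2 to 0.0004 with 1 row per gene. With a replicate left out, these footprints ran from -0.075 to 0.0392, TE in KO2 from -0.0874 to 0.0023 (ENSMUST00000109972.8), from -0.0892 to 0.0058 (ENSMUST00000137426.7) and from -0.1143 to 0.037 (ENSMUST00000151066.7), and TE in KO3 from -0.1737 to 0.1044 (ENSMUST00000154584.8) and from -0.1327 to 0.1223 (ENSMUST00000109975.9). The few reads of the long-only region limit every statement on it.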
